A study of Homo sapiens with 24 samples.

Results

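The genes described here stood higher at 48 h than at either end of a time course after a hairpin against OTX2 was switched on. The cells were D425, a human line long established from a medulloblastoma, measured on Affymetrix U133 Plus 2.0 arrays, where a probe set gives 1 signal for a transcript or a part of it. A probe set was taken when, on the scale log2(signal + 16), its mean over the 3 shOTX2 courses at 48 h exceeded both the 0 h mean and the 96 h mean by at least 0.6. Both differences also had to be positive in each course, and the mean signal at 48 h had to be at least 60. Of 41091 probe sets that name 1 gene, 160 met this, and 117 genes remained of 19775 once the brightest of these was kept for each gene. Since the 48 h differences chose the genes, they are given as a description with no test, and tests compare only arrays that the choice did not use. The spread in those tests is estimated from the replicates at all 6 times, 0, 48 and 96 h included.

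The arm labelled shOTX2 carries a short hairpin RNA against OTX2 that doxycycline switches on, and its RNA was taken in 3 independent courses at 0, 8, 16, 24, 48 and 96 h after doxycycline. The control arm is D425 cells labelled as control, with 1 course of 1 array at each of the same times; what these cells carry in place of the hairpin is not given in the sources used here. Both arms were plated 24 h before doxycycline and grown in MEM with 10% fetal calf serum. All 24 arrays thus come from 1 cell line, and the spread between replicates is the spread between 3 courses. Total RNA of whole cultures was measured, so a higher share of cells that express a gene and more RNA per cell cannot be told apart.

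OTX2 is a homeobox transcription factor of the developing forebrain, midbrain and retina, and it is highly expressed in many medulloblastomas. Brief waves of expression are known from differentiating and stressed cells, and a gene can pass through a high level without being silent before or after it. Among the genes found are sarcomere and calcium-binding proteins, components of Notch and G protein signalling, interferon-induced proteins and metabolic enzymes.

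Promoter sequence was available for 92 of the 117 genes in RefSeq's GRCh38.p14 table, as the stretch from 250 bases before to 50 bases after the annotated start. NANOS1, LFNG and IFI44 are shown, 1 member each from translational control, the Notch pathway and the interferon response, and their promoters lie at chr10:119029464-119029763, chr7:2512279-2512578 and chr1:78649539-78649838, all on the plus strand. Capitals mark the E-box CAGCTG in NANOS1, the E-box CAGATG and the RBPJ core TGGGAA on the reverse strand in LFNG, and the interferon-stimulated response element on the reverse strand in IFI44.
NANOS1: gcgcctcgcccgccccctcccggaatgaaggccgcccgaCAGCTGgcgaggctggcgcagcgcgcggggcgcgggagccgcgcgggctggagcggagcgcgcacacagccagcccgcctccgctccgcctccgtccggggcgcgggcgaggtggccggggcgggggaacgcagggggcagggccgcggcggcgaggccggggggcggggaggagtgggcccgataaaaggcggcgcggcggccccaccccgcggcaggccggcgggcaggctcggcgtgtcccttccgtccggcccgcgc
LFNG: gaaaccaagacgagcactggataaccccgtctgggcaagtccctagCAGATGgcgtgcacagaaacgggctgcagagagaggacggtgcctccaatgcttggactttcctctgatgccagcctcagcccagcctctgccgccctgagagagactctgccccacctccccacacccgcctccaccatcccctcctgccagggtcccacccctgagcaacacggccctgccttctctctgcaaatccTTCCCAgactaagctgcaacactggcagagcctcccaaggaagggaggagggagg
IFI44: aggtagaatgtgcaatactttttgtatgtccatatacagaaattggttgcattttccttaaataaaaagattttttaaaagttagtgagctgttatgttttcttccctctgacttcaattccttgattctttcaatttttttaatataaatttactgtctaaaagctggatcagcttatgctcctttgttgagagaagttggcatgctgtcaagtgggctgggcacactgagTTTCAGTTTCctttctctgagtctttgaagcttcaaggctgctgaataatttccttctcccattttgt

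These motifs and several others were searched on both strands of all 27305 promoters of that table; CAGCTG is its own reverse complement, and no motif is contained in another. CAGCTG was present in 18.5% of the members' promoters and 17.7% of all, CAGATG in 13% of the members' promoters and 14.8% of all, TGGGAA in 23.9% of the members' promoters and 24.3% of all and the interferon-stimulated response element in 3.26% of the members' promoters and 3.65% of all. The OTX and CRX homeobox site GGATTA was present in 6.52% of the members' promoters and 6.39% of all, namely in ARHGAP26, BIN1, KLHL41, PLA2G12B, SLC13A2 and SLC33A1. The CCAAT box was found in 38% of the members' promoters and 35.7% of all, the CHR motif TTTGAA in 15.2% of the members' promoters and 15.4% of all, TATAAA in 9.78% of the members' promoters and 12% of all and the cyclic AMP response element TGACGT in 5.43% of the members' promoters and 8.32% of all. These shares were not tested, and a match describes the sequence, not binding.

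OTX2 itself read 4659 ± 217 (SD, n = 3) at 0 h, 4221 ± 146 at 48 h and 4188 ± 302 at 96 h in the shOTX2 arm, with 4964, 4902 and 5357 in control cells. The sources used here do not say which part of the transcript the hairpin or the probes match, so these levels do not check the labels. The ratio of the 3' to the 5' actin probe sets, which grows as RNA is degraded, was 1.31 to 1.51 in course 1, 1.82 to 2.36 in course 2, 1.87 to 2.02 in course 3 and 1.30 to 1.55 in control cells, and at 48 h the shOTX2 arrays had 1.35 to 2.20 against 1.46 to 2.36 at 0 h. Of 8 markers of D425 and neural lineage, 7 had a named probe set and 5 of these lay above the array median on all 24 arrays, MYC and OTX2 among them. The other 2, SOX2 and EOMES, were below 60 on every array. SOX2 had means of 13.1, 9.77 and 21.3 at 0, 48 and 96 h, and EOMES 10.9, 9.50 and 6.03. The sum of the 7 ran from 11831 to 13166 at 0 h, from 9474 to 11611 at 48 h and from 9237 to 9769 at 96 h. The markers of immune, endothelial and oligodendrocyte cells that had a probe set were below a signal of 60 on every array, and so were 3 of 4 astrocyte markers, with GFAP at means of 3.37, 2.93 and 3.30 at 0, 48 and 96 h. The astrocyte sum ran from 255.5 to 299 at 0 h, from 99.5 to 126.5 at 48 h and from 83.4 to 120.8 at 96 h, most of it SLC1A3, a glutamate transporter, with means of 244, 74.9 and 70.2. The part of these markers in the results was not tested.

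At 48 h the 117 genes had mean signals from 60.5 to 4017, with a median of 286. Their log2 difference from 0 h ran from 0.60 to 4.91 with a median of 1.04, and 65 genes had 1 or more and 18 had 2 or more. The difference of 48 h from 96 h ran from 0.60 to 2.61 with a median of 0.80, and 29 genes had 1 or more. For 16 genes both differences reached 1. The arrays at 48 h all lay above all those at 0 and 96 h for 103 members; the 14 that overlapped were S100A1, CHST2, MICALL1 and BIN1 with 96 h, APH1B, ARRDC3, CA12, MPP7, CNTN1, VAPA and IGF1 with 0 h, and SLC2A8, DEPP1 and DOCK9 with both. The count of 103 rests on arrays that the rule used and was not set against all probe sets, so it describes the choice only. At 96 h a median of 25.3% of the difference between 48 and 0 h was left. The 96 h mean stood above the 0 h mean for 85 genes, in every course for 62 of them, and below it for 32, in every course for 18.

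The 48 h time was the highest of the 6 for 98 members, 24 h for 16 and 16 h for 3. The 3 with the highest mean at 16 h were SEPTIN4, APH1B and SLC2A8, and among the 16 were TTN, GABRQ, RAB31, ID2, CLPTM1L, HRH1, ARRB1, CA12 and MPP7, all of which the rule admits because 48 h is compared with the ends alone. The median difference of the members from 0 h was 0.043 at 8 h, 0.52 at 16 h and 0.77 at 24 h. At 24 h the median member stood at 64.4% of its 48 h difference. In the heat map of all members this is the step between the 8 and 16 h columns of the shOTX2 arm. With another middle time in the same rule, 6 genes peaked at 8 h, 43 at 16 h and 72 at 24 h, of which 0, 22 and 35 are among the 117. The reverse shape, lower at 48 h than at both ends by the same amounts, was met by 17 genes.

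**Figure D1:**
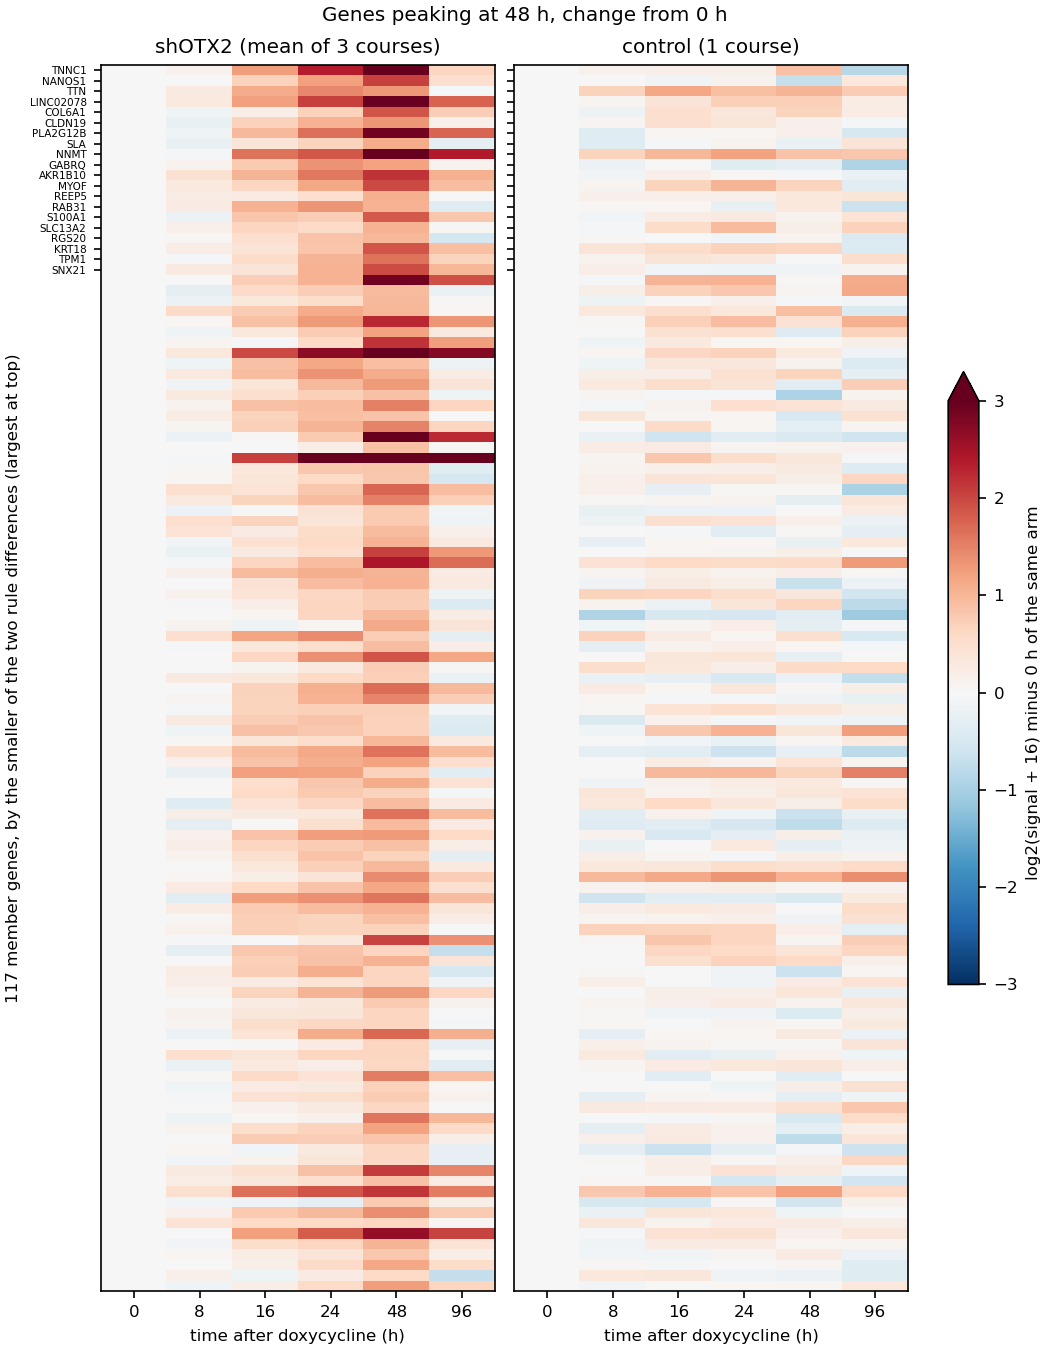
Change from 0 h of the same arm on the log2(signal + 16) scale for the 117 genes (rows, ordered by the smaller of their differences of 48 h from 0 h and from 96 h), at 6 times that are evenly spaced on the axis though not in hours. The shOTX2 panel shows the mean of 3 courses and the control panel 1 array a time; colours stop at 3 in either direction, the 20 first genes are named, and most shOTX2 rows turn red at 16 or 24 h, before the 48 h column that the rule fixes.

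The last genes inside the threshold were CCNQ, an activating cyclin of CDK10, the growth factor gene IGF1 and RETREG2, a reticulophagy regulator, whose smaller differences were 0.605, 0.602 and 0.601. The first outside were KIF16B at 0.599, TRAPPC14 at 0.599 and ABHD14B at 0.595, with no gap at the border.

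Whether these genes were already higher before 48 h was tested on the 8, 16 and 24 h arrays, which the choice of genes did not use. By limma, with the spread estimated at all 6 times and with p-values adjusted over all 27081 named probe sets that passed a filter on low signals, 57 of the 117 genes were higher at 24 h than at 8 h and 0 were lower. Over all probe sets tested, 1.77% were called higher and 1.51% lower, 3.28% in all, and among the members 48.7% were called higher. The log2 difference was positive for 114 members, with a median of 0.72 and a range of -0.18 to 3.59, against a median of 0.0073 over all probe sets. It was positive for 51.2% of all probe sets. All 3 arrays at 24 h lay above all 3 at 8 h for 83 members, against 9.11% of all probe sets. Course by course the median was 0.76, 0.79 and 0.57, and 104 members were higher at 24 h in every course. The count of 104 was not set against all probe sets. The test covers the interval before 48 h and says nothing of 96 h.

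With the course as a block, which pairs arrays of the same course, 86 members were called higher and 0 lower, among 1383 higher and 1244 lower of all probe sets. Without course 2, 7 members were called, namely TNNC1, NANOS1, PLA2G12B, NNMT, POM121L9P, USP18 and SVBP, and 51 of all probe sets in either direction, against 887 with all courses. A fit of the 8 and 24 h shOTX2 arrays alone called 31 members. Without course 3 there were 25, and without course 1 there were 65, though PDE8A, APH1B, SLA, FXYD3, RCBTB1 and ZNF630 lost their calls. The count over all probe sets for the fit of these groups alone, and its range with 1 course left out, are given in the section on processing below. Leaving out a course lowers the residual degrees of freedom to 6, against 12 with all courses. All 117 genes passed the filter on low signals, 3 of them only through arrays at other times than 8 to 24 h, and with a filter on the 8, 16 and 24 h arrays alone 60 members were called. The count over all probe sets with that filter is not given here. At 16 h against 8 h, 18 members were called higher and 0 lower, where 0.347% of all probe sets were called higher. With the block there were 58, among 652 higher and 551 lower of all probe sets, and without course 2 there were 0. Among the 18 were NNMT, PLA2G12B, POM121L9P, PHLDB2, LACTB, SVBP and USP18, with log2 differences of 1.67, 1.10, 1.24, 0.54, 0.77, 0.73 and 2.10. The members with a negative 24 h difference were RBMS2, an RNA-binding protein, at -0.18, TBCD, a tubulin folding cofactor, at -0.13, and SMARCA2, an ATPase of chromatin remodelling, at -0.03, and none of them was called.

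**Figure D2:**
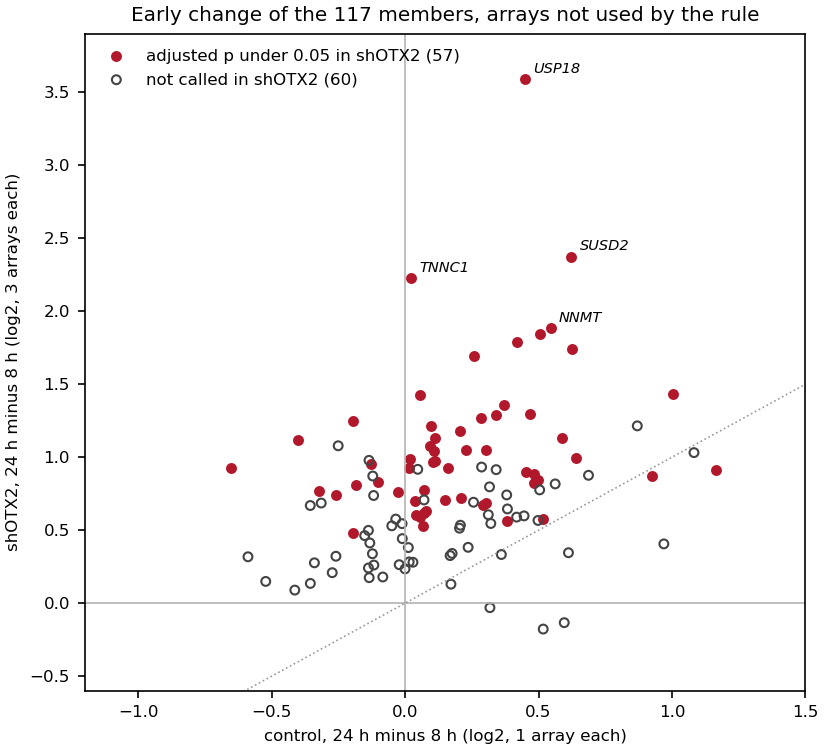
Log2 change between 8 and 24 h of the 117 genes in the shOTX2 arm (vertical axis, mean of 3 courses) and in the control course (horizontal axis, 1 array a time), with the dotted line where both are equal. Filled points are the 57 genes called by limma in the shOTX2 arm and open points the 60 that were not; 114 points lie above 0 on the vertical axis, and USP18, SUSD2, TNNC1 and NNMT are named.

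Grouped by known role, a grouping made after the values were seen, 15 of the 117 genes belong to the contractile apparatus or the cytoskeleton, and 6 of them were called higher at 24 h. The count in this and each later role stands beside 48.7% of all members and 1.77% of all probe sets called higher. TNNC1, the calcium-binding troponin C of slow and cardiac muscle, was first of all members by the smaller of its 2 differences. Its signals in courses 1 to 3 were 83, 72 and 118 at 0 h, 1064, 1158 and 779.6 at 48 h and 198, 132 and 124 at 96 h. All arrays at 48 h lay several times above those at both ends, and the groups did not overlap. At 24 h it had 559.5, 520 and 487, against 105, 63.8 and 142 at 8 h, a log2 difference of 2.22 (SE 0.23, adjusted p = 3.48e-05). Control cells had 173, 189.6, 195, 193, 332 and 90.6 at the 6 times, so the highest control array was also the one at 48 h.

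TTN, the giant spring of the sarcomere, had 188, 134 and 239 at 0 h, 402, 600.2 and 430 at 48 h and 204, 154 and 169 at 96 h, and the 48 h arrays lay above all others of these times. It was higher at 24 h, with 428, 497 and 679 against 233, 157 and 301 at 8 h, by 1.18 (SE 0.26, adjusted p = 0.0137), and in control cells it had 245, 407, 565, 473, 516 and 430.4. The control course thus passed through levels like those of the shOTX2 arm, without the fall to the 0 h level at 96 h. TPM1, an actin-binding tropomyosin, had 288, 197 and 201 at 0 h, 819.6, 762 and 621 at 48 h and 388, 350.5 and 359 at 96 h. TPM1 differed at 24 h by 1.05 (SE 0.15, adjusted p = 0.000615). SVBP, the partner of the tubulin-modifying vasohibins, had 541 ± 55.5 (SD, n = 3) at 24 h against 269 ± 20.7 at 8 h, a difference of 0.96 (SE 0.12, adjusted p = 0.0002). The other called members were SEPTIN4, a septin, at 0.92, against 1.17 in control cells, and SPECC1L, a crosslinker of actin and microtubules, at 0.93.

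KRT18, a keratin of simple epithelia, had 87.4, 44.6 and 52.5 at 0 h, 347, 207 and 253 at 48 h and 179, 123 and 88.7 at 96 h. The early difference of KRT18 was 0.61 (SE 0.35, adjusted p = 0.474, and 0.0189 with the course as a block, where the alternatives ran from 0.0189 to 0.967); its probe set is of the kind that can match several transcripts. ACTN3, the alpha-actinin of fast fibres, had 3, 9 and 6.10 at 0 h, 81.8, 78 and 61.8 at 48 h and 51.7, 42.3 and 29.8 at 96 h. It had 11.3 ± 4.09 (SD, n = 3) at 24 h. KLHL41, a kelch protein of the sarcomere, had 136, 146 and 153 at 48 h after 28.4, 43.4 and 55 at 24 h. For both, the 48 h arrays lay above all arrays of the earlier times, and neither was called at 24 h (adjusted p = 0.485 and 0.726). SYNM, LIMCH1, TBCD, BIN1, IQGAP2 and MICALL1 complete the group and were not called. BIN1 and MICALL1 had adjusted p = 0.127 to 0.268 without the block, 0.000495 to 0.000956 with the course as a block and up to 0.788 over the alternatives. Without course 2, TNNC1 and SVBP kept their calls, and without course 3 TNNC1, TPM1 and SVBP did.

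Of 6 members that bind calcium, or bind membranes in its presence, 4 were called higher at 24 h: the small calcium sensors S100A4 and S100A13, the ferlin MYOF and the C2 domain protein MCTP1. S100A13 had 947, 902 and 926 at 0 h, 1869, 1726 and 1382 at 48 h and 876, 608 and 685 at 96 h. At 24 h S100A13 had 1949, 1488 and 1519 against 1206, 734 and 972 at 8 h, a difference of 0.78 (SE 0.17, adjusted p = 0.017). Its 96 h arrays lay below every array at 0 h. MYOF, which acts in membrane fusion and repair, had 14.4, 25.4 and 36.6 at 0 h, 104, 197 and 146 at 48 h and 68.9, 63.3 and 51.8 at 96 h. MYOF differed at 24 h by 0.87 (SE 0.22, adjusted p = 0.0329). Control cells had 15.3, 17.3, 33.5, 47.2, 34 and 9.30, with a difference of 0.92 between 24 and 8 h. S100A4 and MCTP1 differed by 1.08 (SE 0.23, adjusted p = 0.0131) and 0.89 (SE 0.19, adjusted p = 0.0141). S100A1, a sensor of muscle and nerve cells, had 27.8, 15.9 and 44.4 at 0 h, 255, 131 and 79.1 at 48 h and 107, 50.9 and 38 at 96 h, and the 48 h array of course 3 overlapped the 96 h array of course 1. Its early difference was 0.91 (SE 0.36, adjusted p = 0.227, and 0.0267 with the course as a block, where the alternatives ran from 0.0267 to 0.711). ANXA2, an annexin, had 54.9, 47.1 and 64.2 at 0 h, 200.4, 273 and 196 at 48 h and 120, 109 and 130 at 96 h, with a difference at 24 h of 0.34 (SE 0.18, adjusted p = 0.449); near-identical copies of this gene exist. Without course 2 none of the 6 was called, and without course 3 S100A4 alone was.

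Signalling was the largest group, with 20 members, of which 13 were called higher at 24 h. In the Notch pathway, LFNG adds sugars to Notch receptors and so tunes which ligands they answer, and APH1B is a subunit of gamma-secretase, which releases the receptor's active part. LFNG had 39.8, 51.1 and 43.4 at 0 h, 238, 338 and 200.1 at 48 h and 134, 172 and 176 at 96 h. By 24 h LFNG had 233, 178 and 220.4 against 87.3, 49.5 and 71.4 at 8 h, a difference of 1.42 (SE 0.24, adjusted p = 0.00232). The receptor gene NOTCH1 had 92.4, 70.3 and 74.9 at 0 h, 222, 167 and 151 at 48 h and 144, 82.8 and 79.9 at 96 h, with course 1 the highest at each of these times. For NOTCH1 the early difference was 0.93 (SE 0.27, adjusted p = 0.0767, and 0.00049 with the course as a block, where the alternatives ran from 0.00049 to 0.72). LFNG in control cells had 23.4, 52.7, 65, 55.5, 76.4 and 42.3, and NOTCH1 had 81.2, 74.5, 102, 94.4, 45.2 and 70.4. The control course of LFNG was thus highest at 48 h too, at a lower level, and that of NOTCH1 was lowest there.

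G protein signalling was represented by several genes. GPSM2, which binds G alpha subunits and orients the spindle, had 354, 386 and 438 at 0 h, 1094, 1178 and 1039.8 at 48 h and 609.6, 689 and 710 at 96 h. By 24 h it had 802, 866 and 808, against 339, 444 and 485 at 8 h, a difference of 0.95 (SE 0.13, adjusted p = 0.000425), and its control arrays stayed between 369.5 and 450.1. RGS20, which speeds the shutdown of G proteins, had 99.5, 130 and 186 at 0 h, 324, 313 and 220 at 48 h and 86.2, 73.2 and 107 at 96 h, so that its 96 h mean was 0.53 below the 0 h mean on the log2 scale. Its difference at 24 h was 0.83 (SE 0.19, adjusted p = 0.0207). The receptor kinase gene GRK3, the arrestin gene ARRB1 and the histamine receptor gene HRH1 were higher at 24 h by 1.11, 0.74 and 0.92. HRH1 had passed its top by 48 h, with a mean of 108 at 24 h and 60.5 at 48 h. In control cells HRH1 had 175 at 16 h and 152 at 24 h, above the shOTX2 means of 86.8 and 108.

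SLA, a Src-like adaptor that dampens receptor signalling in lymphocytes, had 67.4, 75.5 and 92.3 at 0 h, 224, 185 and 155 at 48 h and 55, 54 and 77.4 at 96 h. By 24 h SLA had 152, 99 and 158 against 52.1, 59.1 and 85.6 at 8 h, a difference of 0.90 (SE 0.19, adjusted p = 0.0135). SLA in control cells had 220.2, 169, 212, 238, 189 and 293, so all control arrays but the one at 48 h lay above the shOTX2 arrays of their time. INHBE, a subunit of activins, had 441, 674 and 1050.4 at 0 h, 2054, 2308 and 1948 at 48 h and 1009, 1584 and 1415 at 96 h. It was higher at 24 h by 1.70 (SE 0.31, adjusted p = 0.00362), with 1462, 1647 and 2347 against 402, 442 and 876 at 8 h. ARHGAP26, ARRDC3, NEDD4L and PDE8A were called with differences of 0.92, 0.98, 0.67 and 0.48. DACT1, a regulator of Dishevelled, had 14.4, 1.70 and 10.1 at 0 h, 165, 232 and 172 at 48 h and 77.5, 129 and 92 at 96 h with 38.1, 30.9 and 12.7 at 24 h and no control array above 9.60. Its 24 h arrays lay far below those at 48 h, and its early difference was 0.98 (SE 0.29, adjusted p = 0.0805, and 0.0256 with the course as a block, where the alternatives ran from 0.0256 to 0.52).

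IGF1, an insulin-like growth factor, had 85.4, 52.2 and 43 at 0 h, 137, 98.3 and 65.6 at 48 h and 42.8, 16.5 and 32.3 at 96 h, and its 96 h arrays lay at or below the 0 h array of the same course. Its early difference was 0.09 (SE 0.28, adjusted p = 0.951), and -0.066 without course 3. BMPR2, a receptor of bone morphogenetic proteins, had 88.6, 70.2 and 153 at 0 h, 328, 312 and 309.5 at 48 h and 147, 218 and 244 at 96 h on its member probe set, with an early difference of 0.38 (SE 0.23, adjusted p = 0.501). BCR, DOCK9 and MALT1 were not called either. BCR had adjusted p = 0.115 without the block, 0.000169 with the course as a block and up to 0.703 over the alternatives. Without course 2 none of the 20 signalling genes was called, and without course 3 there were 5 calls, those of GPSM2, GRK3, APH1B, INHBE and ARHGAP26.

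Interferon-induced proteins were represented by a pair of genes. USP18, the protease that removes the ubiquitin-like modifier ISG15 and restrains interferon signalling, had 46.5, 27.5 and 104 at 0 h, 1999.9, 2265 and 1921 at 48 h and 1484, 960.2 and 1069 at 96 h. Its 48 h arrays exceeded all others, and the 96 h arrays still stood far above those at 0 h. At 24 h it had 1113, 777 and 543, against 50, 20.4 and 103 at 8 h, a difference of 3.59 (SE 0.39, adjusted p = 4.33e-05), the largest among the members. USP18 in control cells had 145, 155, 266, 217, 189 and 138. IFI44, a cytosolic protein of the interferon response, had 18, 20.6 and 35.8 at 0 h, 158, 156 and 138 at 48 h and 114, 72.8 and 66.6 at 96 h, with control arrays between 13.3 and 17.3. Its early difference was 0.71 (SE 0.19, adjusted p = 0.0527, and 0.018 with the course as a block, where the alternatives ran from 0.018 to 0.511), and at 24 h it had 40.2, 37.6 and 45.8. USP18 kept its call whichever course was left out.

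**Figure D3:**
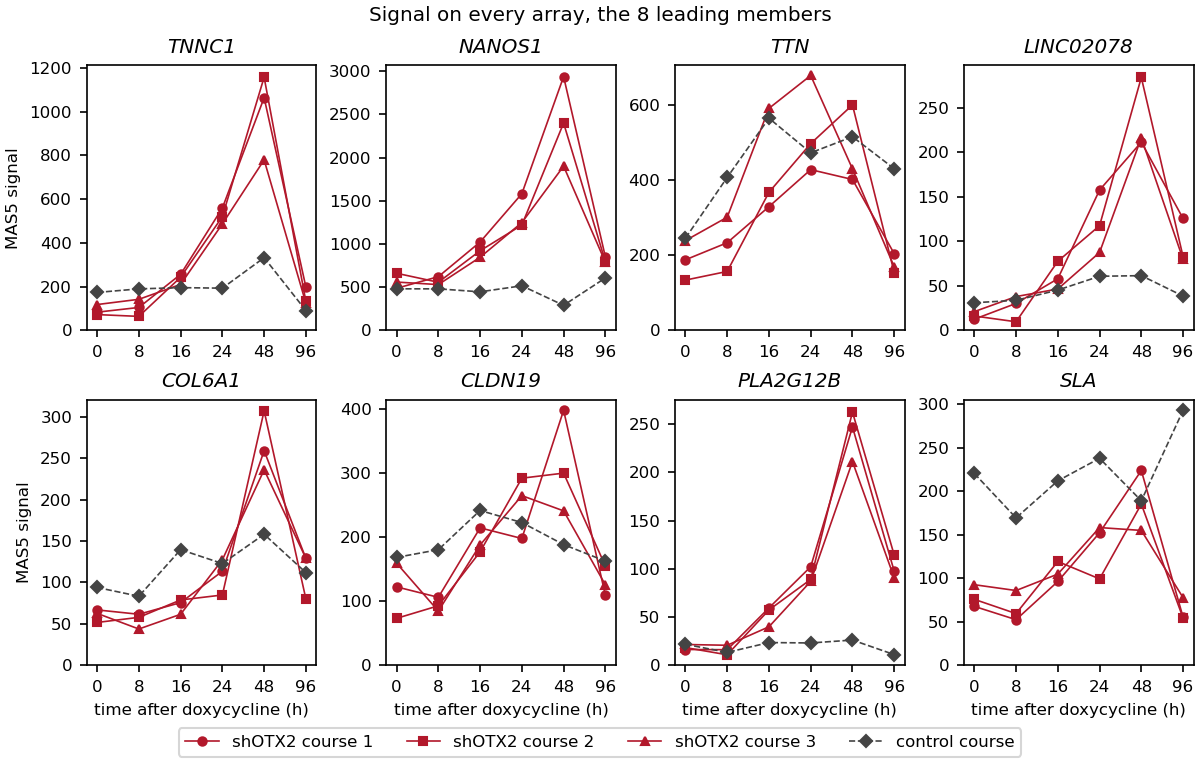
Signal on every array (vertical axis, linear, from 0) of the 8 first genes over the 6 times (horizontal axis, evenly spaced) in the 3 shOTX2 courses and the control course, 1 point an array. All 8 have 48 h points above the 0 and 96 h points of the same course, as the rule requires; SLA has control points above the shOTX2 points of each time but 48 h, whereas PLA2G12B stays below 30 in control cells.

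Of 12 enzymes of metabolism and redox reactions, 6 were called higher at 24 h. NNMT, which methylates nicotinamide, had means of 30.9 ± 18.3 (SD, n = 3) at 0 h, 482 ± 82.3 at 48 h and 217 ± 25.9 at 96 h, with no overlap between 48 h and the others. By 24 h NNMT had 142, 128 and 167 against 27.8, 18.6 and 38.2 at 8 h, a difference of 1.89 (SE 0.23, adjusted p = 0.000185). No shOTX2 array at 24 h overlapped those at 8 h, and in control cells NNMT had 48.7, 86.2, 113, 133, 102 and 98. PLA2G12B, a secreted phospholipase homologue, had 16.1, 18.1 and 21.3 at 0 h, 247, 263 and 211 at 48 h and 97.4, 114 and 90.6 at 96 h. PLA2G12B was higher at 24 h by 1.79 (SE 0.16, adjusted p = 2.21e-05), and its control arrays lay between 10.8 and 25.9. AKR1B10, an aldo-keto reductase that reduces retinal and other aldehydes, had 95, 113 and 197 at 0 h, 685, 649 and 569 at 48 h and 295, 279 and 293 at 96 h and was higher at 24 h by 1.13 (SE 0.23, adjusted p = 0.00875). CHST2, a sulfotransferase, had 348, 272 and 379.9 at 0 h, 1485, 1304 and 1037 at 48 h and 1048, 654 and 635 at 96 h, where the 48 h array of course 3 lay just below the 96 h array of course 1. It and the NADPH oxidase gene NOX4 were higher by 1.36 and 1.00. THRSP, a regulator of lipid synthesis, had 125, 170 and 224 at 0 h, 283, 362 and 286 at 48 h and 123, 87.5 and 141 at 96 h, ending below its 0 h level. For THRSP the early difference was 0.53 (SE 0.24, adjusted p = 0.303, and 0.0318 with the course as a block, where the alternatives ran from 0.0318 to 0.876). SELENBP1, which oxidises methanethiol, was near the bottom of the scale until 24 h, with 4.20, 6.90 and 2.20 at 0 h and 22.2, 18.8 and 5.80 at 24 h, and had 79.6, 83.6 and 65.1 at 48 h. AANAT, ACOT8, DHRS7 and P3H1 were not called. DHRS7 had adjusted p = 0.114 without the block, 0.0193 with the course as a block and up to 0.519 over the alternatives. NNMT and PLA2G12B kept their calls whichever course was left out, while without course 2 AKR1B10, CA12, CHST2 and NOX4 lost theirs, and without course 3 CA12 and NOX4 did.

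Among 9 genes of matrix, adhesion or secretion, 4 were called higher at 24 h. SUSD2, a sushi domain protein of the cell surface, had 347, 128 and 427 at 0 h, 4305, 3234 and 3422 at 48 h and 2664, 1509 and 1743 at 96 h. At 24 h it had 2688, 1485 and 1494, against 508, 137 and 532 at 8 h, a difference of 2.37 (SE 0.45, adjusted p = 0.00539), and control cells had 717, 747, 1110.2, 1158, 879 and 670. Course 2 was the lowest at 0 and 8 h, and the 24 h arrays did not overlap those at 8 h. COL6A1, a chain of the microfibrillar collagen VI, had 66.6, 51.4 and 62.4 at 0 h, 259, 307 and 236 at 48 h and 129, 79.9 and 129 at 96 h. COL6A1 was higher at 24 h by 0.82 (SE 0.18, adjusted p = 0.0162). CLDN19, a claudin of tight junctions, had 122, 72.8 and 159 at 0 h, 397, 299 and 240.5 at 48 h and 109, 155 and 125 at 96 h. CLDN19 and LRP1B, a large lipoprotein receptor homologue, were higher by 1.27 (SE 0.22, adjusted p = 0.00286) and 0.98 (SE 0.15, adjusted p = 0.000922). THBS1, the matrix glycoprotein thrombospondin 1, had 4.90, 2.10 and 4.90 at 0 h, 64.2, 81.5 and 62.2 at 48 h and 38, 49.4 and 31.8 at 96 h. TFPI2, a secreted protease inhibitor and the brightest member at 48 h, had 2279, 2128 and 3365 at 0 h, 3568, 4206 and 4277 at 48 h and 2002, 2569.8 and 3237 at 96 h. Neither was called, with early differences of 0.60 and 0.24.

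NELL1, a secreted protein of bone and nerve tissue, had 16.6, 4.20 and 5.80 at 0 h, 206, 149.7 and 146 at 48 h and 103, 71.3 and 62.1 at 96 h. For NELL1 the early difference was 1.03 (SE 0.30, adjusted p = 0.0666, and 0.01 with the course as a block, where the alternatives ran from 0.01 to 0.544). MPP7, a scaffold of cell junctions, had 498, 758 and 1112 at 0 h, 1028, 1384 and 1175 at 48 h and 396, 535 and 711 at 96 h. The early difference of MPP7 was 0.87 (SE 0.25, adjusted p = 0.0659, and 0.000279 with the course as a block, where the alternatives ran from 0.000279 to 0.652). CNTN1, a neural adhesion molecule, had 674, 481 and 499 at 0 h, 1221, 774 and 657 at 48 h and 445, 387 and 453 at 96 h on its member probe set, where course 3 at 48 h overlapped course 1 at 0 h. The fibroblast markers moved over the same times: the sum of 6 ran from 57 to 90.2 at 0 h, from 699.6 to 1027 at 48 h and from 526 to 1017 at 96 h. Most of that sum was COL1A1, with means of 39.1, 851 and 542, while COL1A2, DCN, LUM and PDGFRA were below 60 on all arrays. COL3A1 had means of 4.60, 22.3 and 77.7 and PDGFRA of 3.37, 7.47 and 33.7, higher at 96 h than at 48 h. COL1A2 had 3.40, 9.17 and 18.7, DCN 15.3, 19.7 and 12.2, and LUM 6.97, 7.77 and 13.2. The part of fibroblast-like expression in the matrix genes was not tested. Without course 2 none of the 9 was called, and without course 3 LRP1B alone was.

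Transporters, channels and small-molecule receptors made up 11 members, 4 of them called higher at 24 h. GABRQ, the theta subunit of GABA-A receptors, had 78, 112 and 126 at 0 h, 218, 309 and 257 at 48 h and 121, 102 and 117 at 96 h. By 24 h GABRQ had 330.1, 328 and 225 against 96.4, 101 and 147 at 8 h, a difference of 1.25 (SE 0.19, adjusted p = 0.00113). GABRQ in control cells had 114, 99.3, 115, 84.7, 91.4 and 53, none of which reached the 24 h arrays of the shOTX2 arm. The multidrug and cyclic nucleotide exporter gene ABCC4, the acetyl-CoA carrier gene SLC33A1 and FXYD3, a regulator of the sodium pump, were higher by 0.59, 0.72 and 1.05. SLC13A2, a dicarboxylate cotransporter, had 32.3, 22.3 and 30.4 at 0 h, 117, 56.5 and 61.4 at 48 h and 44.4, 17 and 29.8 at 96 h, with course 1 well above the others at 48 h, and an early difference of 0.41 (SE 0.27, adjusted p = 0.565). FOLR1, a folate receptor, had 34.3, 27.5 and 37.6 at 0 h, 77.9, 76.5 and 47.9 at 48 h and 21.9, 16.9 and 25 at 96 h on its member probe set. A far brighter probe set of FOLR1, with a mean of 1360 at 48 h, had log2 differences of only 0.19 from 0 h and 0.14 from 96 h. For FOLR1 the early difference was 0.69 (SE 0.25, adjusted p = 0.171, and 0.0368 with the course as a block, where the alternatives ran from 0.0368 to 0.879). SCN2A, SLC29A3, SLC2A8, SLC38A5 and TTYH2 were not called. SLC29A3, SLC2A8, SLC38A5 and TTYH2 had adjusted p = 0.0647 to 0.541 without the block, 0.000151 to 0.0333 with the course as a block and up to 0.95 over the alternatives. Without course 2 none of the 11 was called, and without course 3 GABRQ alone was.

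Of 6 genes of vesicles and intracellular membranes, RAB8B, SNX21 and RETREG2 were called higher at 24 h. SNX21, a sorting nexin, had 68.6, 81.5 and 86.6 at 0 h, 280.2, 452 and 341 at 48 h and 151, 195 and 177 at 96 h, with a difference at 24 h of 0.77 (SE 0.19, adjusted p = 0.0302), while its control arrays stayed between 72.3 and 94.3. RETREG2 was higher by 0.71 (SE 0.10, adjusted p = 0.000583). RAB31, a GTPase of endosomal transport, had 454, 352 and 664 at 0 h, 741, 1321 and 1009 at 48 h and 461, 272 and 385 at 96 h. The early difference of RAB31 was 1.08 (SE 0.29, adjusted p = 0.0536, and 0.0097 with the course as a block, where the alternatives ran from 0.0097 to 0.427). RAB31 in control cells had 1267, 1299, 1317, 1089.7, 1577 and 804, highest at 48 h and lowest at 96 h. REEP5, which shapes the endoplasmic reticulum, had 302, 278 and 259.8 at 0 h, 649, 632 and 544 at 48 h and 308, 265 and 278 at 96 h, with an early difference of 0.28 (SE 0.14, adjusted p = 0.368), and VAPA was not called. Without course 2 none of the 6 was called, and without course 3 RAB8B and RETREG2 were.

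Of 10 genes that act on RNA, chromatin or transcription, 2 were called higher at 24 h, NANOS1 and ZNF630. NANOS1, an RNA-binding repressor of translation known from germ cells, had 487, 661 and 559 at 0 h, 2937, 2400.4 and 1901 at 48 h and 851, 795 and 789 at 96 h. At 24 h it had 1582, 1219 and 1248, against 621, 557 and 529.8 at 8 h, a difference of 1.22 (SE 0.15, adjusted p = 0.000152), and control cells had 481, 480.4, 446, 516, 289.8 and 606. The control array at 48 h was the lowest of its course, while the shOTX2 arrays were highest at that time. ID2, an inhibitor of basic helix-loop-helix factors, had 355, 180.1 and 274 at 0 h, 478, 734 and 444 at 48 h and 336, 220.4 and 273 at 96 h. ID2 in control cells had 245, 310, 353, 308, 473 and 178, where the 48 h array was the highest. Its early difference was 0.54 (SE 0.29, adjusted p = 0.444). H2BC4, a replication-dependent histone, had 20.6, 23.1 and 24.3 at 0 h, 102, 120.4 and 90.9 at 48 h and 40.1, 73 and 67.1 at 96 h and an early difference of 0.13 (SE 0.25, adjusted p = 0.903), which was -0.025 without course 1 and -0.047 without course 3. EPAS1, a hypoxia-inducible factor subunit, had 1016, 1127 and 947 at 0 h, 2241, 1738 and 1727 at 48 h and 1283, 967 and 936 at 96 h with 1234, 1047 and 1249.9 at 24 h, so that it was near its 0 h level at that time. SMARCA2 had 28.4, 20.9 and 15.8 at 0 h, 56.8, 84.6 and 58.5 at 48 h and 52.2, 26.1 and 24.6 at 96 h on its member probe set, and LMO1, RBMS2, ZCCHC7 and ZNF33B were not called either. NANOS1 kept its call whichever course was left out, and ZNF630 lost it without each of them.

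Non-coding RNAs and pseudogenes made up 7 members, 4 of them called higher at 24 h. POM121L9P, a transcribed pseudogene, had 43.6, 39 and 64.9 at 0 h, 369, 389 and 395 at 48 h and 318, 205 and 229 at 96 h. POM121L9P was higher at 24 h by 1.84 (SE 0.18, adjusted p = 3.48e-05). POM121L8P was higher by 1.29 (SE 0.22, adjusted p = 0.00267), but these copies resemble each other, and probes may read more than 1 of them. LINC02078 had 12.5, 16.1 and 21 at 0 h, 211, 284 and 216 at 48 h and 126, 82.7 and 79.7 at 96 h and was higher at 24 h by 1.74 (SE 0.26, adjusted p = 0.000757), and LINC00662 by 0.69. LINC02981, DOCK8-AS1 and ATP8B1-AS1 were not called. DOCK8-AS1 and ATP8B1-AS1 had adjusted p = 0.171 to 0.275 without the block, 0.0232 to 0.0412 with the course as a block and up to 0.876 over the alternatives. The last 19 members have other roles, and 10 of them were called. PHLDB2, which anchors microtubules at the cell cortex, was higher by 0.70 (SE 0.089, adjusted p = 0.000198), and NDRG1, a gene of hypoxia and growth arrest, by 0.85 (SE 0.19, adjusted p = 0.0172). CLPTM1L, a membrane protein, was higher by 1.30 (SE 0.22, adjusted p = 0.00264), and CAST, the calpain inhibitor calpastatin, by 0.53 (SE 0.13, adjusted p = 0.033). At 24 h CLPTM1L had a mean of 2982 in the shOTX2 arm and 2735.5 in control cells. FSD1L, LACTB, LETMD1, RCBTB1, SCAPER and SESN3 were called as well, and ABHD15, C9orf72, CCNQ, DEPP1, MVP, NXNL1, RPS27L, TIMM50 and XRCC4 were not. CCNQ had 103, 99.8 and 79.2 at 0 h, 271, 213 and 211 at 48 h and 173, 144 and 124 at 96 h, with an early difference of 0.58 (SE 0.16, adjusted p = 0.0545, and 0.001 with the course as a block, where the alternatives ran from 0.001 to 0.498). MVP, the main protein of vaults, had 87.4, 62 and 77.2 at 0 h, 586, 389 and 322 at 48 h and 312, 188 and 164 at 96 h and an early difference of 1.21 (SE 0.33, adjusted p = 0.0541, and 4.93e-05 with the course as a block, where the alternatives ran from 4.93e-05 to 0.404). ABHD15, C9orf72, DEPP1, TIMM50 and XRCC4 had adjusted p = 0.0533 to 0.178 without the block, 0.00034 to 0.00619 with the course as a block and up to 0.818 over the alternatives. Of these 2 groups POM121L9P alone kept its call without course 2, and without course 3 LINC02078, POM121L8P, POM121L9P, LACTB, PHLDB2 and RCBTB1 did.

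What was left at 96 h differed between members. The largest remaining log2 differences from 0 h were those of USP18 (4.08), SUSD2 (2.76), NNMT (2.39), DACT1 (2.24) and POM121L9P (2.03), all of which still stood above 0 h in each course. The largest in the other direction were those of IGF1 (-0.71), CA12 (-0.71), RGS20 (-0.53), THRSP (-0.49) and MPP7 (-0.48). These values come from arrays that the rule used and carry no test.

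The control course, which the choice of genes did not use, was compared at 48 h with the mean of its 0 and 96 h arrays. Its log2 difference had a median of 0.019 over the members, against 0.029 over all probe sets. By limma 0 members were called higher and 2 lower, where 0.0775% of all probe sets were called higher and 0.303% lower; 14 members and 2988 of all 27081 probe sets had an unadjusted p under 0.05, 12% of the members and 11% of all. Each control time is 1 array, taken to vary as the shOTX2 arrays do, from which all the spread in this test comes. The members called lower were RPS27L, a ribosomal protein-like gene induced by p53, at -0.98 (SE 0.19, adjusted p = 0.0399), and LACTB, a mitochondrial serine protease homologue, at -0.94 (SE 0.19, adjusted p = 0.0439). RPS27L had 306, 325, 296, 291, 153 and 331 at the 6 control times and LACTB had 138, 154, 171, 151, 75 and 182, in both cases lowest at 48 h. Both calls were lost without course 2 and without course 3, when 0 members were called. With the course as a block NANOS1 was called lower as well, and TNNC1 and KRT18 were called higher. NANOS1 had a difference of -0.86, with an adjusted p of 0.103, 0.00635 with the block and up to 0.334 over the alternatives. TNNC1 had a difference of 1.29, with an adjusted p of 0.113, 0.0153 with the block and up to 0.229 over the alternatives. KRT18 had a difference of 0.86, with an adjusted p of 0.578, 0.0482 with the block and up to 0.737 over the alternatives.

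Control cells had their 48 h array above those at 0 and 96 h for 43 members, below both for 28 and between them for 46. These counts were not set against all probe sets. The size that the rule asks of the shOTX2 arm was reached by 7 members in control cells: TNNC1, MYOF, KRT18, ID2, FXYD3, FOLR1 and LFNG. ID2 had 245, 473 and 178 at 0, 48 and 96 h there, and FOLR1 had 24.8, 47.3 and 7.70. The log2 difference of ID2 was 1.00 from 0 h in the shOTX2 arm, against 0.90 in control cells. The opposite shape at that size was found for NANOS1, RPS27L, MPP7 and LACTB. KLHL41, MCTP1 and S100A4 had control differences of -0.74, -0.73 and -0.69, none of them called. The control course had its highest array at 48 h for 22 members. For the others it was 0 h in 7, 8 h in 10, 16 h in 18, 24 h in 19 and 96 h in 41.

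The change between 8 and 24 h was also set against that of the control course. Its difference between the arms was positive for 107 members, with a median of 0.56 on the log2 scale, against 0.0030 over all probe sets. It was positive for 50.3% of all probe sets. limma called 0 members and 0 of all probe sets, which is 0%, with 36 members and 1406 probe sets at an unadjusted p under 0.05. With the course as a block 2 members were called, TNNC1 and GPSM2. The difference between the arms was 2.20 for TNNC1, with an adjusted p of 0.305, 0.0241 with the block and up to 1 over the alternatives. The difference between the arms was 1.08 for GPSM2, with an adjusted p of 0.462, 0.0321 with the block and up to 1 over the alternatives. The median change of the members in control cells over the same interval was 0.11, against 0 over all probe sets tested, with 80 members higher at 24 h. The count of 80 was not set against all probe sets. MYOF and SEPTIN4, both called in the shOTX2 arm, had differences between the arms of -0.055 and -0.25. Without the block, no single member's early change was shown to differ from that of the control course.

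Several of the 117 genes are neighbours in the genome. In RefSeq's order of annotated genes on GRCh38.p14, 16 members have another member no more than 5 entries away, in 16 such pairs. The longest run lies on chromosome 15, where TPM1, LACTB, RPS27L, RAB8B, APH1B and CA12 follow each other within 12 entries. These are all 6 protein-coding genes of that stretch, the other entries being non-coding RNAs that were not tested. Their products have unlike roles: a tropomyosin, a mitochondrial protease homologue, a ribosomal protein-like protein, a vesicle GTPase, a gamma-secretase subunit and a carbonic anhydrase. At 24 h against 8 h, 5 of the 6 were called higher, against 1.77% of all probe sets and 48.7% of the members.

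RAB8B had 70.8, 61.7 and 59.1 at 0 h, 291, 239 and 198 at 48 h and 136, 158 and 129 at 96 h. By 24 h RAB8B had 139, 154 and 159 against 64.5, 63.8 and 66.4 at 8 h, a difference of 1.04 (SE 0.13, adjusted p = 0.000213). LACTB had 116, 115 and 124 at 0 h, 246, 212 and 208 at 48 h and 139, 123 and 155 at 96 h, with 219, 205 and 208 at 16 h already, and its 24 h difference was 0.76 (SE 0.13, adjusted p = 0.00226). In both, no array at 24 h overlapped those at 8 h. APH1B had 1081, 774 and 1371 at 24 h against 328, 275 and 595 at 8 h, a difference of 1.43 (SE 0.31, adjusted p = 0.0137), and 438, 309 and 658 at 0 h, 821, 649 and 741 at 48 h and 249, 353 and 494 at 96 h. CA12 had 1937, 1353 and 1801 at 24 h against 909, 535 and 892 at 8 h, a difference of 1.13 (SE 0.23, adjusted p = 0.01), and 1253, 658 and 928 at 0 h, 1922, 1290.4 and 1232 at 48 h and 575, 476 and 623 at 96 h. Both had their highest mean before 48 h, and at 96 h CA12 stood below its 0 h level in every course. RPS27L had 198, 266 and 298 at 0 h, 494, 443 and 479 at 48 h and 203, 237 and 247 at 96 h. For RPS27L the early difference was 0.46 (SE 0.13, adjusted p = 0.059, and 0.00451 with the course as a block, where the alternatives ran from 0.00451 to 0.529). With the block all 6 were called, without course 3 there were 4 and without course 2 there were 0, with log2 differences from 0.49 to 1.43 in that case.

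**Figure D4:**
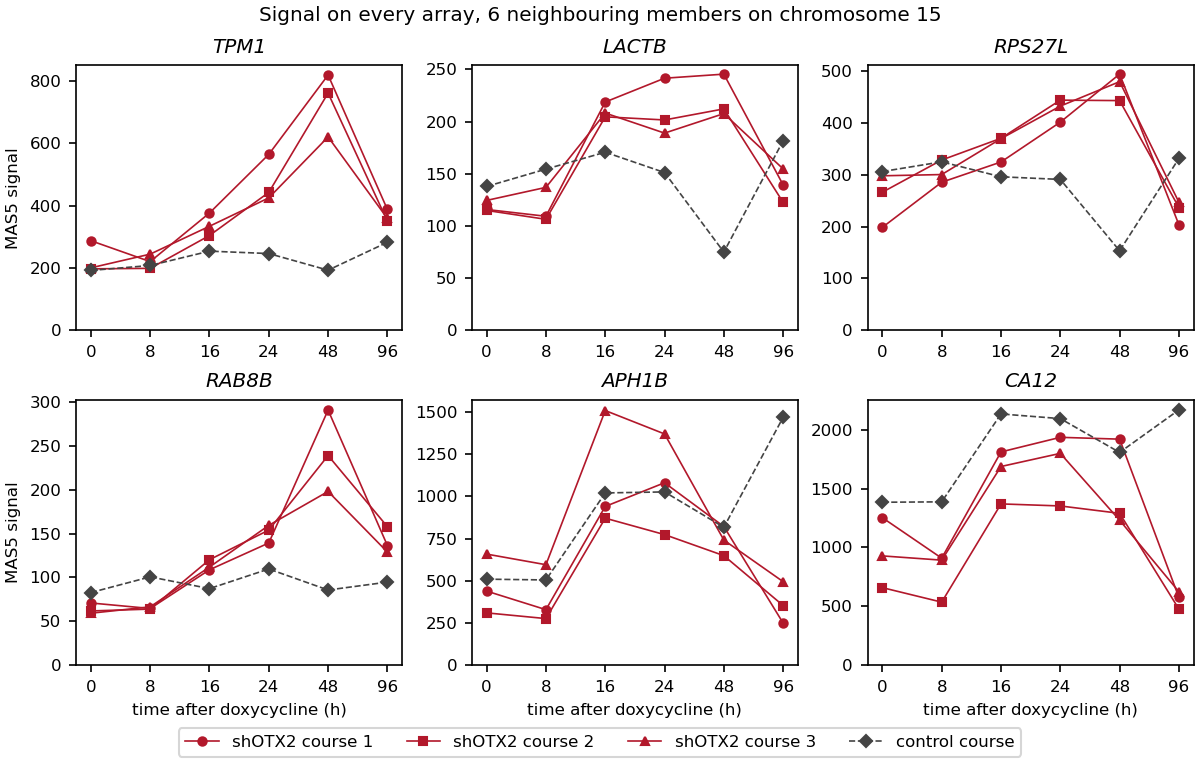
Signal on every array (vertical axis, linear, from 0) of 6 neighbouring genes on chromosome 15 over the 6 times (horizontal axis, evenly spaced) in the 3 shOTX2 courses and the control course, 1 point an array. TPM1 and RAB8B climb to 48 h, APH1B and CA12 are already high at 16 h, and the control points of LACTB and RPS27L are lowest at 48 h.

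The control arrays of APH1B had 509, 504, 1021, 1027, 817 and 1469 and those of CA12 had 1385, 1388, 2136, 2096, 1809 and 2171, a climb between 8 and 16 h like that of the shOTX2 arm and no fall at 96 h. Those of TPM1 and RAB8B stayed between 192 and 283 and between 82.7 and 109.6. Outside the stretch, the nearest tested coding genes on one side, TLN2 and VPS13C, had early differences of -0.10 (adjusted p = 0.94) and 0.0019 (adjusted p = 0.998), and those on the other, USP3 and HERC1, had 0.37 (adjusted p = 0.0999) and 0.37 (adjusted p = 0.114). Of these 4 none is a member. USP3 had means of 618, 1044 and 806 at 0, 48 and 96 h, with a log2 difference of 0.37 between 48 and 96 h. The brighter probe sets of RPS27L, RAB8B and CA12 did not meet the rule, with smaller log2 differences of 0.38, 0.53 and 0.58, so 3 of the 6 owe their place to a dimmer probe set.

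A shorter run lies on chromosome 22, where SUSD2, POM121L9P and SPECC1L fall within 9 entries. All 3 were called higher at 24 h, against 1.77% of all probe sets and 48.7% of the members. The 1 other tested gene there, GGT5, a gamma-glutamyltransferase, had means of 1.27, 50.3 and 9.57 at 0, 48 and 96 h, below the signal of 60 that the rule asks, with an early difference of 0.79 (adjusted p = 0.276). On chromosome 1, CLDN19, P3H1 and SVBP fall within 7 entries, and between them C1orf50, which missed the rule at 0.58 between 48 and 96 h, was called higher at 24 h by 0.74 (adjusted p = 0.000802). P3H1, a collagen prolyl hydroxylase, had 151, 114 and 169 at 0 h, 461, 279 and 275 at 48 h and 230.2, 187 and 178 at 96 h. It had an early difference of 0.80 (SE 0.25, adjusted p = 0.0938, and 0.000446 with the course as a block, where the alternatives ran from 0.000446 to 0.464). S100A1 and S100A13 adjoin on chromosome 1, and ACOT8 and SNX21 on chromosome 20. These runs were noticed in the data, and whether they are more than the gene order gives by chance was not tested.

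The members were also set against 21 lists of known pathway genes, 766 genes of which 608 were tested on the brightest probe set of each gene; 16 members are on a list and 101 on none. In the list of muscle and contractile genes, 5 of 20 tested genes were higher at 24 h and 1 was lower, with a median of -0.00045 against 0.0073 over all probe sets. TNNC1, TPM1 and TTN are the members among the 5, and the others were CHRNA1, a subunit of the muscle acetylcholine receptor, and TNNC2, the troponin C of fast muscle. TNNC2 had means of 2.90, 215 and 249 at 0, 48 and 96 h, higher at 96 h than at 48 h, unlike TNNC1. Of 20 Notch pathway genes, 2 were higher, the member LFNG and HES6, a Hairy-related factor, and 0 were lower, with a median of 0.13. Of 16 interferon response genes, 2 were higher, USP18 and IFI44L, and 1 was lower, IFIH1, with a median of -0.084. Of 30 genes of hypoxia and glycolysis, 4 were higher and 0 lower, with a median of 0.063, namely the members CA12 and NDRG1, and P4HA2 and STC1.

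Of 42 genes of adhesion and matrix, 2 were higher, COL6A1 and SPARC, and 7 were lower, with a median of 0.063. Of 31 genes of the TGF-beta, BMP and activin pathway, 2 were higher and 2 lower, with a median of -0.029, and the brighter probe set of BMPR2 was among the higher ones, at 0.62. Histone and chromatin regulators had 1 higher of 33 and 0 lower, neuronal differentiation genes 1 and 1 of 41, and proneural factors 2 and 0 of 29, and their members SMARCA2, H2BC4, CNTN1 and ID2 were not among those called. No member is on the lists of the cell cycle, p53 targets, heat shock, the unfolded protein response, WNT or the photoreceptor, and in the last 1 gene was higher and 6 lower of 34. The lists do not hold every gene of a pathway: the member RPS27L, described above as induced by p53, is not on the list of p53 targets. Absence from a list thus does not place a member outside that pathway.

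The signal of a gene can depend on which part of its transcript a probe set reads. Of the 117 genes, 85 had another named probe set past the filter, 184 in all, and 43 of these met the rule, for 31 genes. Both 48 h differences were positive on 168 of the 184, with medians of 0.71 from 0 h and 0.52 from 96 h, and both were negative on 3, in CLPTM1L, TBCD and ARHGAP26. For 26 members a brighter probe set of the gene did not meet the rule; on 25 of these brighter sets both differences were positive, and on 12 both were at least 0.4. By mean signal over all 24 arrays, the 26 are ACOT8, ATP8B1-AS1, BCR, BMPR2, C9orf72, CA12, CAST, CNTN1, DOCK9, FOLR1, FXYD3, GPSM2, GRK3, POM121L9P, RAB8B, RBMS2, RETREG2, RPS27L, SCAPER, SESN3, SLC13A2, SLC2A8, SMARCA2, TBCD, TFPI2 and VAPA. The brighter probe set of TFPI2 had log2 differences of 0.17 from 0 h and 0.50 from 96 h, and that of FXYD3 had 0.42 and 0.44. That of FOLR1 had 0.19 and 0.14, and the brightest of BMPR2, with a mean of 949 at 48 h, had 1.45 and 0.12. ARHGAP26 is not among them, but another of its probe sets, with a higher mean at 48 h (932, against 807 on the one kept), had 1.72 and 0.17.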

How the data were processed

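The deposited values are MAS5 signal intensities of 54675 probe sets on 24 arrays, made by the authors with MAS5 in GCOS, per the submitters' processing notes; their 2% trimmed mean is about 100 on each array. The number of arrays limits the precision. Gene names come from GEO's platform annotation, updated by Entrez ID through RefSeq, and 41091 had 1 gene symbol. Values were analysed as log2(signal + 16), with no further scaling. Probe sets above the array median on at least 3 arrays (27081) were fitted with limma 3.58.1 in R 4.3.3, as means of 12 arm and time groups, with p-values adjusted by Benjamini-Hochberg over all of them, called at 0.05. Courses are independent by the labels, and the p-values without the block measure the spread between them. That fit counts the arrays of a course as separate, with 12 residual degrees of freedom. With the block, the p-values measure the spread left once the shift of each course is taken out. Arrays of the same course deviated together (45 pairs, r 0.175 to 0.598), so the course pairs the arrays. Pairs from different courses had r from -0.416 to 0.268, with a median of -0.305, and 29 of 90 lay above 0.1. Values with the course as a block stand beside the calls they change, except at 16 against 8 h, where only the count is given.

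The genes, the lists and the tests were chosen with earlier results of these data known, and the roles were assigned after the values were seen. The text names the first 20 genes by the smaller of their 2 differences, up to 10 with the smallest adjusted p at 24 against 8 h, up to 6 with the largest control difference at 48 h and up to 5 with the largest change left at 96 h in each direction, list members and the 3 on each side of the threshold; the others were chosen after their values were seen. The alternatives were other pseudocounts, filters, scalings, thresholds and probe sets, and each course left out. The calculation was tested on simulated data. These were drawn independently for each array, with no shift shared by a course, so that check does not cover arrays of a course deviating together.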

Additional observations from a re-analysis of the deposited data

Results flagged for a closer look

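The 28 genes below had a control array at 48 h below those at both 0 and 96 h, while the shOTX2 arm stood above both in every course, as the choice of genes requires. The difference between the arms was not tested, and the control course has 1 array a time. How many of all probe sets have this control order was not counted, so 28 is not shown to be more than usual. The control difference of 48 h from the mean of its ends had a median of 0.019 over all members, against 0.029 over all probe sets. The control differences of 48 h from 0 h on the log2 scale were -0.93 for RPS27L, -0.76 for MICALL1, -0.76 for LACTB, -0.70 for NANOS1, -0.67 for NOTCH1, -0.65 for H2BC4, -0.63 for MPP7 and -0.55 for RBMS2. They were -0.46 for KLHL41, -0.45 for XRCC4, -0.43 for INHBE, -0.42 for TFPI2, -0.38 for MCTP1, -0.31 for S100A4 and -0.31 for BMPR2. They were -0.29 for BCR, -0.29 for ABHD15, -0.27 for SMARCA2, -0.27 for LETMD1, -0.27 for FSD1L, -0.26 for SCAPER, -0.25 for CHST2 and -0.23 for NEDD4L. The smallest were -0.21 for SLA, -0.14 for NDRG1, -0.11 for RCBTB1, -0.095 for SNX21 and -0.017 for PHLDB2. Of the 117 genes, 43 had the opposite order in control cells and 46 lay between the ends.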

How the results depend on the processing

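For 24 against 8 h in the shOTX2 arm, 57 members were called higher; the count was 31 in a fit of only those groups, 86 with the course as a block and 7 to 65 with 1 course left out, and over all probe sets 887 became 354, 2627 and 51 to 1140. At 16 against 8 h the 18 members became 11 with no filter, 1 in a fit of only those groups, 58 with the block and 0 to 21 with 1 course left out, and the 190 of all probe sets became 10, 1203 and 0 to 308 under the last 3 of these. For the control course at 48 h the 2 members called lower became 1 on the brightest probe set of each gene, 0 with a pseudocount of 64 or quantile normalization and 0 to 3 with 1 course left out; with the block 2 were called higher. The 103 of all probe sets became 226 with median centring, 299 with no filter, 205 and 62 with pseudocounts of 1 and 64, 1138 with the block and 0 to 543 with 1 course left out. For the difference between the arms the counts of 0 became 2 members and 37 probe sets with the block. The fit with only the groups compared was not run for the control course, which leaves it no residual degrees of freedom. The early difference changed sign with 1 course left out for TBCD (-0.37 to 0.049), SMARCA2 (-0.29 to 0.25), IGF1 (-0.066 to 0.20) and H2BC4 (-0.047 to 0.46), none of them called. The cause of these changes was not tested, beyond fewer arrays in the fits that leave some out. Of 29 called members among 52 named, 22 lost the call without course 2, 12 without course 3, 1 without course 1, 9 with only the groups compared and 1 with no filter, and the block lost 0 and gained 11. The rule itself gave 63 genes with a pseudocount of 64, 282 with a difference of 0.4 and 47 with 0.8, and 91 when the brightest probe set of each gene was taken first, an alternative chosen after seeing the data. Without course 1, 2 or 3 the rule gave 128, 104 and 151 genes, of which 91, 91 and 111 are among the 117. With median centring it gave 99 genes, all of them members, and with quantile normalization 132, of which 111 are members.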

Other observations

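Of 13522 probe sets with no gene name or with several, 31 also met the rule for a peak at 48 h; they are unnamed here.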
